A study of Homo sapiens with 17 samples.

Results

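The contacts described here are the promoter contacts of primed human pluripotent stem cells (PSCs) that join 2 regions of the same chromosome whose fragment middles lie over 1 Mb and up to 5 Mb apart. They were selected by distance alone, so neither their read number nor their strength entered the choice beyond the authors' own score limit. Of 88712 primed contacts within a chromosome, 5554 (6.26%) lay in this range, 82727 were up to 1 Mb long and 431 were longer than 5 Mb. The naive list held 1317 contacts of the same range. Together the primed and naive lists held 128955 different contacts.

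Contacts were measured by promoter capture Hi-C (PCHi-C), in which ligated pairs of HindIII restriction fragments are enriched with baits for promoter fragments and sequenced. The cells were H9 NK2, an isogenic pair of lines from 1 human embryonic stem cell line, so all values describe 1 genetic background. Naive PSCs were grown on Matrigel with the MEK inhibitor PD0325901, the GSK3 inhibitor CHIR99021, human LIF and the protein kinase C inhibitor Go6983, and primed PSCs on Vitronectin in TeSR-E8, both at low oxygen and without feeder cells. Both lines are known to carry a copy number change on chromosome 19. PCHi-C had 2 replicates per cell type, which the authors combined into 1 list, Hi-C had 1 library per cell type, and H3K4me1, a histone mark of enhancers and of the flanks of promoters, was profiled by CUT&RUN with 2 libraries of naive and 3 of primed PSCs. Where the contact lists are compared, no replicate test was therefore possible, and intervals cover counting error only.

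Naive PSCs resemble the cells of the preimplantation epiblast and primed PSCs those of the later epiblast, which is about to enter the germ layers. Genes of transcription factors that later pattern the embryo, such as the HOX, NKX, LHX and FOX genes, are mostly silent in both states. In many cell types their promoters lie in CpG islands bound by Polycomb complexes, and Polycomb-bound regions are known to meet over long distances in the nucleus.

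The promoters of several contacts to which the text returns are printed here to show how CpG-rich or CpG-poor the joined regions were. Each is the 250 bases before the gene start from RefSeq, in GRCh38 (assembly GRCh38.p14), written 5′ to 3′ on the strand of the gene with every CG in capitals. EN2 and MNX1, which encode homeodomain factors, were joined to each other, as were the homeobox genes NKX2-3 and TLX1, while COL12A1 and RHOJ were leading hubs outside the developmental families. The last sequence is the whole of the short unbaited fragment that made the strongest contact of the NKX2-1 promoter.
EN2 (chr7:155457879-155458128, plus strand): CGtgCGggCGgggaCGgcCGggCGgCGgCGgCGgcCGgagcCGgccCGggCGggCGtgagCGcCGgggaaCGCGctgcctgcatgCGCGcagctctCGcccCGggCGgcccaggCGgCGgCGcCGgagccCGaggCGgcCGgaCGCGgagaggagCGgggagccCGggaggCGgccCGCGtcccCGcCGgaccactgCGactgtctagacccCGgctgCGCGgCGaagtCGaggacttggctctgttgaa
MNX1 (chr7:157010664-157010913, minus strand): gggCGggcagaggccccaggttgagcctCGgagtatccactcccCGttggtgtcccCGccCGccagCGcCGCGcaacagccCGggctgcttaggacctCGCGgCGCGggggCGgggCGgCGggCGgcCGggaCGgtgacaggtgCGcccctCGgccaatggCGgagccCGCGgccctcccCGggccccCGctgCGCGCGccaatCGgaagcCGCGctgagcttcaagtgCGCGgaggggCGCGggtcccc
NKX2-3 (chr10:99532692-99532941, plus strand): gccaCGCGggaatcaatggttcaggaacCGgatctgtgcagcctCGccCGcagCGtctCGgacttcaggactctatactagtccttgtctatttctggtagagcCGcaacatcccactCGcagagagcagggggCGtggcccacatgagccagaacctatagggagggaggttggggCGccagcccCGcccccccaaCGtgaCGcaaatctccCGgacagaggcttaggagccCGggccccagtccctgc
TLX1 (chr10:101131050-101131299, plus strand): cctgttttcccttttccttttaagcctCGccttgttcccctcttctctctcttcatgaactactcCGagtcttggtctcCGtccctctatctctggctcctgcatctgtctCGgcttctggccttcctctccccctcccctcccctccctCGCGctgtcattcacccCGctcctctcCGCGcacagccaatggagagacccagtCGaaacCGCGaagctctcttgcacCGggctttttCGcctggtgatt
COL12A1 (chr6:75206054-75206303, minus strand): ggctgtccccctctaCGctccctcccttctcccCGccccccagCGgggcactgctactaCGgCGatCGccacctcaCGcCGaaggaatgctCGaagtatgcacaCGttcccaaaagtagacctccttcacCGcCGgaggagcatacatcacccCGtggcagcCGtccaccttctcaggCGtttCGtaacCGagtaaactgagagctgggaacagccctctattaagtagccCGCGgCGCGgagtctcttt
RHOJ (chr14:63204193-63204442, plus strand): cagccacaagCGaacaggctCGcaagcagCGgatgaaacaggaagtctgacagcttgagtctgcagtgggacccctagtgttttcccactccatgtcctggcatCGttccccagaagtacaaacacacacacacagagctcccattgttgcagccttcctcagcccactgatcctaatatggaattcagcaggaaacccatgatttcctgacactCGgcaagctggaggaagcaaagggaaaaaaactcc
unbaited end facing NKX2-1 (chr14:37588648-37588851, plus strand): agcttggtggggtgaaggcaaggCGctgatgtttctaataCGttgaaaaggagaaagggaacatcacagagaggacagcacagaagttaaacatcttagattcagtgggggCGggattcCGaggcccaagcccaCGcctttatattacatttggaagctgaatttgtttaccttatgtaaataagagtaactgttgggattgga

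The EN2 window held 45 CG and the MNX1 window 36, against a median of 11 over all 35116 promoter windows of the same length. NKX2-3 had 16, TLX1 14 and COL12A1 21, whereas RHOJ had 5. Over the promoters in the baited ends of the contacts, the median was 18 both for the 156 of developmental genes and for the 1087 of other genes, so that the medians of these windows did not separate the groups. Among baited ends with at least 10 contacts the median was 21 for 46 developmental promoters and 16 for 105 others. Over whole fragments the groups lay further apart. Baited ends with a developmental gene had a median of 40.3 CG per kb and 90.5% of them had at least 20 per kb, compared with 17.9 per kb over all baited ends and 6.87 per kb over all HindIII fragments. The unbaited ends that faced a developmental bait had a median of 9.75 per kb, and 26.4% of them reached 20 per kb. The unbaited ends facing other baits had 6.41 per kb, and 5.50% reached that level, close to the 5.94% of all fragments.

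The primed contacts of 1 to 5 Mb were carried by few reads. The median was 11 reads per contact (quartiles 8 and 15, range 3 to 141), compared with 23 reads for primed contacts up to 1 Mb, and 37.3% of them had under 10 reads. The CHiCAGO score, which weighs the reads of a contact against the background at its distance and is at least 5 in the lists, had a median of 7.13 (quartiles 5.81 and 10.02, highest 104.11), compared with 6.63 for the shorter contacts. Most were near the lower limit of the range. The median distance was 1336 kb (quartiles 1131 and 1717), with 4600 contacts of 1 to 2 Mb, 597 of 2 to 3 Mb, 194 of 3 to 4 Mb and 163 of 4 to 5 Mb. Just inside the limits were a contact of CA5B just over 1 Mb long (12 reads, score 8.36) and a contact of RARS1 over 4999 kb (5 reads, score 5.47). Just outside were a contact of NELL2 over 999.8 kb (19 reads, score 6.78) and a contact between PITX1 and PURA over 5073 kb (7 reads, score 12.98).

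Primed PSCs had 4.22 times as many contacts of this range as naive PSCs (95% interval from counting error 3.97 to 4.48). Up to 1 Mb the lists were of similar size, with 82727 primed and 77805 naive contacts, and those contacts held 2995940 and 2854267 reads. By contrast, the contacts of 1 to 5 Mb held 69770 reads in primed and 13296 in naive PSCs. Chromosome 6 differed from the others, with 531 primed and 395 naive contacts, and without it the ratio was 5.45 (5.08 to 5.84). The plot of contacts by distance shows the gap between the cell types beyond 1 Mb, but the gap did not start at this limit. Contacts of 900 kb to 1 Mb already numbered 1491 in primed and 498 in naive PSCs. How much of the gap follows from the depth of the libraries, which the lists do not give, was not tested.

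**Figure D1:**
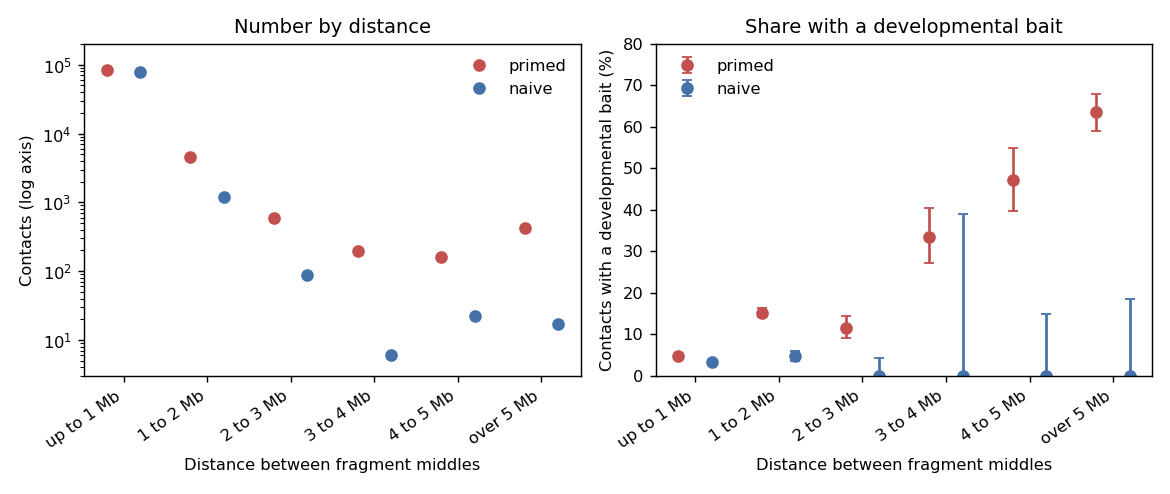
Number of listed contacts (left, log axis) and share with a bait of a developmental gene family (right, percent with 95% Wilson intervals) by distance in primed and naive PSCs. Beyond 1 Mb the primed list holds more contacts than the naive list, as it already does at 900 kb to 1 Mb (1491 and 498). Its developmental share is 15.3% at 1 to 2 Mb and 47.2% at 4 to 5 Mb. The 4 to 5 Mb class has 163 primed contacts, and the DLX to HOXD region pair alone has 68 with a median distance of 4017840 bp. The intervals treat contacts as independent.

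The contacts were unevenly spread over chromosomes. They made up 24.6% of all primed contacts within chromosome 21 (158 contacts), 13.4% on chromosome 18 (132) and 9.25% on chromosome 7 (390), but 1.90% on chromosome 11 (108), 1.78% on chromosome 17 (71) and 0.452% on chromosome 22 (4). Chromosome 1 had the most, 633. The primed to naive ratio ranged among chromosomes with naive contacts from 1.34 on chromosome 6 to 17.1 on chromosome 9, where 137 primed and 8 naive contacts were listed. Chromosomes 19 and 22 had no naive contact of this range, against 27 and 4 primed contacts.

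Many of the contacts were the same region pair seen through neighbouring fragments. When contacts with both ends within 50 kb of each other were merged, 1330 region pairs remained, of which 697 were single contacts, whereas 144 pairs with at least 10 contacts held 3060 of the 5554. The contacts used 1450 baited and 4031 unbaited fragments. Of the baited ends 652 had a single contact, and 168 with at least 10 each took part in 52.4% of the contacts. Unbaited ends were less often reused, with 3321 of 4031 in a single contact. In 9.90% of the contacts (550, 95% Wilson interval 9.14 to 10.7) both ends were baited, against 11.2% of primed contacts up to 1 Mb, 23.9% of those over 5 Mb and 22.3% of naive contacts of 1 to 5 Mb. Contacts that shared fragments formed 758 connected groups, 364 of them a single contact, and 70 groups with at least 20 contacts held 3246.

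Baits of developmental genes were frequent among these contacts. Fragments are named by the gene starts they hold. The developmental families were lists of homeobox, SOX, forkhead, GATA, T-box and bHLH factors and of WNT, FGF, TGF-beta and hedgehog ligands. A further developmental list mixed zinc finger and other lineage factors, such as RUNX, TFAP2, DMRT and EBF genes. A bait of these families took part in 913 contacts (16.4%, 95% Wilson interval 15.5 to 17.4), compared with 4.87% of primed contacts up to 1 Mb, 63.6% of those over 5 Mb and 4.33% of naive contacts of 1 to 5 Mb. By distance the share was 15.3% at 1 to 2 Mb, 11.6% at 2 to 3 Mb, 33.5% at 3 to 4 Mb and 47.2% at 4 to 5 Mb. The last class held 77 such contacts of 163. The DLX to HOXD region pair alone had 68 contacts with a median distance of 4017840 bp, so 1 locus weighs on the shares beyond 3 Mb. Counted once per region pair, the developmental share over the whole range was 11.6%, so the repeated contacts of neighbouring fragments raised it. Of the 355 developmental baits with any primed contact, 137 (38.6%) had at least 1 contact of this range, against 9.97% of the other 13168 baits. The median score was 9.33 with a developmental bait and 6.89 without, at the same median of 11 reads.

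The HOX clusters, which lay out the body axis, differed among themselves. Of the HOXD baits 10 of 10 had contacts of this range, 85 in all, and of the HOXA baits 10 of 11, with 44 contacts. No contact was listed for any of the 11 HOXB and 8 HOXC baits, although these had 177 and 144 primed contacts up to 1 Mb. The naive list held 12 such contacts for HOXD and none for the other clusters. HOXA contacts converged on 4 adjacent unbaited fragments at chr7:25852798-25872596, 1223 to 1391 kb from the baits of the cluster and about 281 to 299 kb from the start of NFE2L3, the nearest coding gene. These fragments had 10, 12, 10 and 6 contacts with baits of the HOXA cluster and EVX1, with at most 38 reads and a score of up to 38.72, and no naive contact of this range.

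On chromosome 2 the DLX genes, which pattern the forebrain and face, were joined to HOXD over about 4 Mb. The largest connected group, with 159 contacts of 63 fragments over 8.28 Mb, held DLX1, DLX2, GAD1 (an enzyme of GABA synthesis), the zinc finger genes SP5 and SP9, EVX2 and HOXD1 to HOXD13, and 11 of its contacts were listed in naive PSCs. The DLX to HOXD region pair alone had 68 contacts with a median distance of 4017840 bp and 4 to 26 reads, of which the naive list held 0. Its strongest contact joined a bait between DLX1 and DLX2 to the HOXD10 and HOXD11 fragment (26 reads, score 65.82). The DLX1 fragment itself met the same HOXD fragment with 20 reads and a score of 51.69. An unbaited fragment at LINC01305, 7.77 kb from SP9, had 9 contacts that reached DLX1 and DLX2 on one side and HOXD and EVX2 on the other.

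NKX genes, homeobox factors of foregut, heart and forebrain, had 126 contacts of this range at 10 of 11 baits, against 1 in naive PSCs. NKX2-3 had 65 of them from 2 adjacent baits (35 and 30, no naive contact of this range), facing PAX2, TLX1, LBX1, FGF8 and KAZALD1. Its contact with TLX1 over 1603 kb had 28 reads and a score of 44.76, and that with PAX2, a factor of kidney and eye development, had 41 reads and a score of 36.53. NKX2-1, which specifies lung and thyroid, met FOXA1, a pioneer factor of endoderm, with 39 reads (score 34.78), and the unbaited fragment 5.15 kb from FOXA1 printed above with 57 reads (score 77.22). NKX2-4 and NKX2-2 met FOXA2 with 29 and 27 reads.

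Other homeobox genes had 193 contacts, among them 31 at MNX1, 26 at EN2 and 23 at OTP. EN2, a gene of the midbrain and hindbrain boundary, and MNX1, a gene of motor neurons and pancreas, met over 1547 kb with 45 reads and a score of 65.84, and SHH, the hedgehog ligand, met MNX1 with 13 reads (score 14.14). Their connected group on chromosome 7 had 106 contacts, none of them in the naive list. MSX2 had 13 contacts, the strongest with a fragment 15.3 kb from the cardiac gene NKX2-5 (52 reads, score 70.14). LIM homeobox genes had 47 contacts (LHX2 13, ISL1 8, LHX5 8), and LHX5 met the T-box gene TBX3 with 64 reads and a score of 36.14.

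Among the remaining lists, forkhead genes had 107 contacts (FOXP2 50, FOXA1 16, FOXA2 15), the mixed list of zinc finger and other lineage factors 88 (RUNX1 31, TFAP2B 25, TFAP2A 11), bHLH genes 59 (NEUROG2 16, TAL1 13), POU genes 43, all at POU3F2, DLX genes 36, TGF-beta and hedgehog ligands 36 (TGFB2 15), FGF ligands 23 (FGF9 11, FGF5 10), IRX genes 20, SOX genes 16 (SOX4 9), T-box genes 12 (TBX3 10), PAX genes 11, GATA genes 6 and WNT genes 3. Neither RUNX1 nor the TFAP2 genes encode zinc finger factors. Of the comparison lists, the share of baits with a contact of this range was 1.75% for ribosomal protein, 6.67% for proteasome, 7.81% for olfactory receptor, 8.41% for ZNF and 9.52% for protocadherin genes, and the last lay near the 9.97% of all baits outside the developmental lists. There were 0 contacts at 48 keratin baits, 1 at 57 ribosomal protein baits, 5 at 30 proteasome baits, 21 at 192 olfactory receptor baits, 22 at 42 protocadherin baits, 14 of them at PCDH10, and 32 at 226 ZNF baits. Histone genes lay far above that share, with 66 contacts at 25 of 45 baits, and they ran the other way between cell types, with 303 in naive PSCs and 54 listed in both.

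In 50 contacts both baits were developmental, and none of these was in the naive list. Besides those named above they joined LHX6 to LHX2 (17 reads), LHX2 to LMX1B (9), NKX2-5 to MSX2 (37), IRX3 to IRX6 (32), TCF21 to OLIG3 (12), MSX1 to HMX1 (6), OLIG2 to SIM2 (6), TAL1 to DMRTA2 (8), OTX1 to MEIS1 (6) and FGF5 to NKX6-1 (6). Many rested on few reads, so single pairs with 4 to 6 reads are weakly measured.

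The fragments with the most contacts were mostly not of these families, although developmental promoters were more frequent at baited ends with many contacts. Baited ends with at least 10 contacts held 46 developmental promoters and 105 others, against 156 and 1087 over all baited ends. VCAN-AS1, 23.7 kb from the gene of the matrix proteoglycan versican, had 52 contacts, RHOJ, a small GTPase of endothelial cells, 51, COL12A1, a collagen, 49, and PAQR3 48, as the plot of leading baited fragments shows. COL12A1 faced CD109 and PAQR3 faced PRDM8, FGF5, CFAP299 and BMP3. A bait on chromosome 21 (chr21:28740628-28745201), 138 kb from N6AMT1, had 44 contacts that reached back to ADAMTS1 and ADAMTS5, genes of matrix proteases. POU3F2, a neural POU factor, and FOXP2, a forkhead gene of the brain, had 43 each. EPHA6, an ephrin receptor, had 38, a bait 141 kb from LMX1A 37, LINC02880 (45.1 kb from MARCKS) 37, CD83 32, RUNX1 and KCNH5 31 each, HAPLN1 30 and HOOK1 29.

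**Figure D2:**
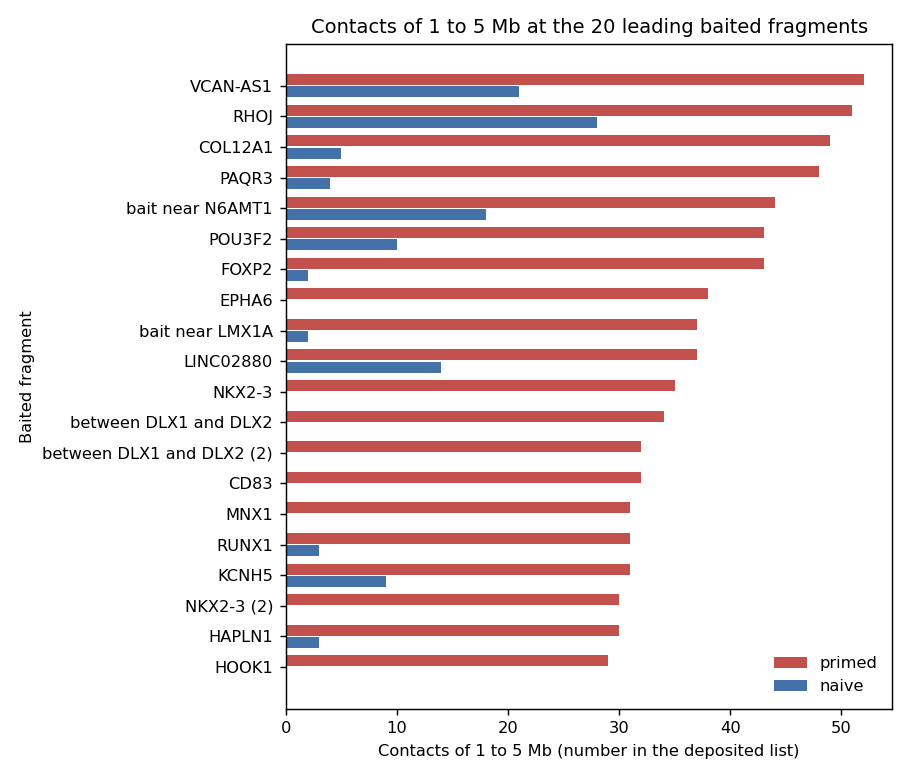
Number of contacts of 1 to 5 Mb in the primed and naive lists at the 20 baited fragments with the most in primed PSCs. VCAN-AS1 has 52 primed and 21 naive contacts and RHOJ 51 and 28, while EPHA6, NKX2-3, CD83, MNX1, HOOK1 and the baits between DLX1 and DLX2 have 0 in naive PSCs.

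Several of these hubs also had naive contacts of this range. RHOJ had 28, VCAN-AS1 21, the chromosome 21 bait 18, LINC02880 14, POU3F2 10 and KCNH5 9, but COL12A1 had 5, PAQR3 4, FOXP2 2, and EPHA6, CD83, MNX1, HOOK1 and NKX2-3 none. CD83 and HOOK1 had no naive contact within the chromosome at any distance. Most hubs faced a single direction, as COL12A1 did with 49 of 49 contacts toward lower coordinates and PAQR3 with 48 of 48 toward higher ones, whereas RHOJ had 11 and 40. Of the 10 largest connected groups 7 held no developmental bait, among them the RHOJ and KCNH5 group on chromosome 14 (120 contacts, 29 in naive), the VCAN and HAPLN1 group on chromosome 5 (99, 23 in naive) and the DAB1, MYSM1 and HOOK1 group on chromosome 1 (87, 7 in naive). A region pair on chromosome 1 joined genes of the epidermal differentiation complex, with HRNR, RPTN, TCHH and S100A11 on one side and LORICRIN, SPRR2F, SPRR2G and S100A12 on the other, through 66 contacts of 8 to 16 reads, and 0 of these were in the naive list.

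The strongest single contact joined the chromosome 21 bait to a fragment 2.80 kb from ADAMTS1 over 1894 kb, with 141 reads and a score of 104.11 in primed PSCs and 54 reads and a score of 36.40 in naive PSCs. FZD8, a WNT receptor, had 75 reads (score 54.86) with a fragment 1136 kb away, against 18 reads (score 14.01) in naive PSCs. LRRC4C, a synaptic adhesion gene, had 63 reads (score 29.11) against 47 (score 32.85), and BCL6, a transcriptional repressor, 58 (score 29.10) against 29 (score 13.15). On chromosome 16 NPIPB15 met a fragment near PDPR over 4222 kb with 24 reads (score 68.00) and 19 in naive PSCs (score 51.63). NPIP genes belong to a family of segmental duplications, where reads can be assigned to the wrong copy. The ends of this contact shared no word of 50 bases with each other, and whether other copies in these regions played a part was not tested. Over the contacts, 99.5% shared no such word between their ends and 0 shared 10% or more.

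Few of the primed contacts were listed in naive PSCs. The same fragment pair was in the naive list for 647 contacts (11.6%, 95% Wilson interval 10.8 to 12.5), compared with 46.7% of primed contacts up to 1 Mb. With both ends within 10 kb of a naive contact the share was 25.5%, and within 50 kb 41.8%. The baits themselves were not missing, since 84.8% of the contacts had a bait with some naive contact within the chromosome. The share rose with the score, from 4.78% at scores of 5 to 6 to 7.13% at 6 to 8, 13.2% at 8 to 10, 23.1% at 10 to 20 and 29.2% from 20. Contacts with a developmental bait went against this order, since 5.04% of them were in the naive list, compared with 12.9% of the others, despite their higher median score. From the naive side the same 647 made up 49.1% of its contacts of this range.

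Where a contact was listed in both, it mostly had more reads in primed PSCs. The median was 16 reads and a score of 10.46 in primed, compared with 11 reads and 7.56 in naive PSCs, and 504 had more reads in primed, 107 fewer and 36 as many. The reads are whole numbers after the authors' scaling, so small differences of a single contact lie within counting error. The part of library depth, which the lists do not give, in the higher primed reads was not tested. Chromosome 6 stood apart in the plot of shared contacts, with 51 of its 109 higher and 52 lower in primed PSCs, against 453 and 55 of 538 on the other chromosomes. The naive contact with the highest score among the shared ones joined the histone genes H2AC4 and H3C2 to H1-5, with 24 reads (score 54.50) in naive and 10 reads (score 17.75) in primed PSCs.

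**Figure D3:**
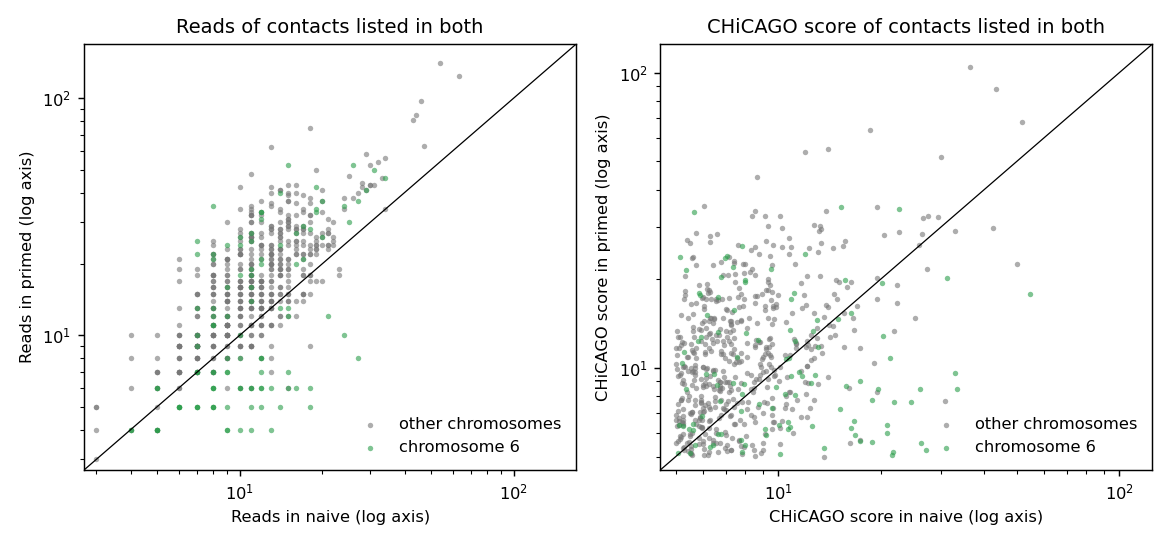
Reads (left) and CHiCAGO scores (right) of the 647 contacts listed in both cell types, naive on the x axis and primed on the y axis, both log axes, with a line of equality. Points of chromosome 6 lie on both sides of the line, with 51 above and 52 below for reads, and most others lie above it.

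The primed Hi-C library, which was not enriched for promoters, had more contacts in the bin pairs of these members than in other bin pairs at the same distances. Hi-C is not independent of PCHi-C, because PCHi-C is captured from Hi-C libraries. Observed over expected counts, with the expectation set by distance and the coverage of both 100 kb bins, had a median of 4.77 in the primed library (quartiles 3.25 and 6.90), and 95.4% were over 2. Over all bin pairs weighted to the same distances the median was 0.809 and 10.2% were over 2. The 5554 contacts fell into 1616 different bin pairs, over which the median was 3.65. With a developmental bait the median was 5.06 and without 4.73, and over 2 Mb it was 6.85. When the expectation was set by distance alone, the order turned, with 4.32 with a developmental bait and 5.50 without. Contacts that joined 2 developmental baits had a median of 4.50, with a median count of 18 against 3.34 expected. By distance alone their median was 2.69.

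The EN2 and MNX1 bins had 106 primed Hi-C contacts against 6.61 expected, the bins of NKX2-5 and MSX2 96 against 5.43, FZD8 and its far end 167 against 15.3, and the chromosome 21 pair 194 against 24.2. DLX1 and HOXD10 had 18 against 1.91. LHX5 and TBX3 had 37 against 5.01, but 1.58 times the expectation when this was set by distance alone, and for NKX2-3 and TLX1 (19 against 3.35) that ratio was 1.34. Against bin pairs shifted along the chromosome the ratios of these 2 were 8.48 and 9.33. Hub medians ranged from 2.98 for POU3F2 to 9.88 for CD83. The naive Hi-C file lists counts for 59.2% of the bin pairs of members with a value and leaves out low pairs, so naive ratios were not computed.

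**Figure D4:**
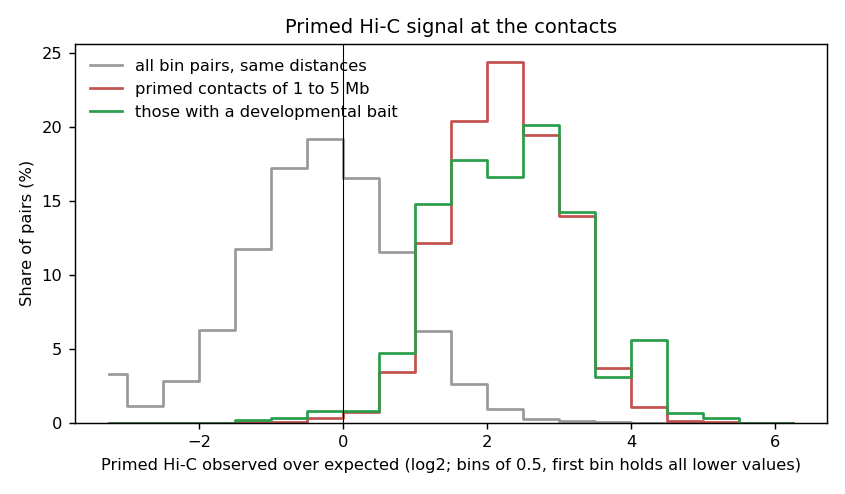
Share of pairs (percent) by primed Hi-C observed over expected (log2 axis, bins of 0.5) for the primed contacts of 1 to 5 Mb, for those with a developmental bait, and for all pairs of 100 kb bins at the same distances. The contacts sit to the right of all bin pairs, with medians of 4.77 and 0.809 before taking the log.

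H3K4me1 was measured over each end fragment as the log2 of mean RPM, that is reads scaled to the depth of the library, per 500 bp tile plus 0.1. Fold changes on this scale understate changes of low fragments. The libraries differed in depth, which was 21.8 and 6.74 M reads in naive and 8.85, 7.89 and 26.6 M reads in primed libraries, as read from the value of 1 read. At the promoters of 10 naive markers, 9 had a value and all 9 were lower in primed PSCs, with libraries of the states not overlapping at 8. Of 10 primed markers 8 were higher, 5 of them without overlap, while 2 were lower, both without overlap, among them CD24. OTX2 fragments had contacts of 1 to 5 Mb.

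Over all ends of the contacts, the shares of H3K4me1 calls lay near those of all fragments of the genome, but leaned less to naive than those of contacted fragments. Of the 5345 ends tested by limma with Benjamini-Hochberg adjustment, 217 (4.06%) were higher in primed PSCs and 181 (3.39%) higher in naive PSCs at an adjusted p under 0.05. Over all 791413 fragments the shares were 3.89% and 3.59%, and over the 86074 fragments in either contact list 3.91% and 6.43%. Without overlap of libraries, 1383 ends (25.9%) were higher in primed and 1081 (20.2%) in naive PSCs, compared with 22.5% and 18.0% of all fragments. For fragments in either contact list these shares were 21.1% and 28.1%. Among fragments with a mean of at least 0.2 RPM, 564 of 2653 ends (21.3%) were called higher in primed and 387 (14.6%) in naive PSCs, below the 25.1% and 19.9% of all such fragments. The calls are fragile with 5 libraries. None remained in either direction without naive replicate 1, primed replicate 1 or primed replicate 3, where 1086, 1433 and 1168 ends had an unadjusted p under 0.05 (limma), and without naive replicate 2 there were 0 and 14, with 904 such ends.

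The ends of contacts with a developmental bait lay higher in primed PSCs. The median level of the 137 developmental baited ends was 0.803 and 0.754 RPM in the naive libraries and 1.18, 1.01 and 0.873 RPM in the primed libraries, so every primed median lay above both naive medians. All primed libraries exceeded all naive libraries at 65 of these ends (47.4%) and the reverse held at 14 (10.2%), beside 22.5% and 18.0% of all fragments. The median log2 difference, primed minus naive, was 0.32, beside 0.06 over all fragments (0.22 beside 0.13 without primed replicate 1). Of these ends 15 (10.9%) were called higher in primed and 3 (2.19%) in naive PSCs, beside 3.89% and 3.59% of all fragments. With at least 0.2 RPM the calls were 38 (28.4%) and 7 (5.22%) of 134, beside 25.1% and 19.9% of all such fragments. The primed share at that level thus lay near that of all fragments, and the naive share below it. At the 1307 other baited ends the order was opposite, with 303 (23.2%) higher in primed and 380 (29.1%) higher in naive libraries without overlap. There 36 (2.75%) and 76 (5.81%) were called, and the median was -0.06. Baited ends with contacts up to 1 Mb only leaned further to naive, with 20.7% and 34.2% without overlap and a median of -0.15.

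The unbaited fragments that faced developmental baits showed the same direction. Their median level was 0.201 and 0.205 RPM in naive and 0.372, 0.253 and 0.287 RPM in primed libraries. Of 576 such ends, 219 (38.0%) were higher in primed and 68 (11.8%) higher in naive libraries without overlap, beside 22.5% and 18.0% of all fragments. The calls were 45 (7.81%) and 10 (1.74%), beside 3.89% and 3.59%, and the median difference was 0.33. At 3325 unbaited ends that faced no developmental bait, 796 (23.9%) and 619 (18.6%) did not overlap, 121 (3.64%) and 92 (2.77%) were called, and the median was 0.10. The ends that faced developmental baits were also richer in CG, as given above, and the part of base composition in the difference was not tested. Unbaited ends of contacts listed in naive PSCs and of those not listed had medians of 0.13 and 0.13. Among those with at least 0.2 RPM the medians differed, with 0.16 over 226 and 0.35 over 1384 ends, beside 0.11 over all such fragments. At that level 18.6% and 26.6% were called higher in primed PSCs, beside 25.1% of all such fragments. The shares called higher in naive PSCs were 10.6% and 13.9%, beside 19.9%.

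Taking both ends of a contact together, both were higher in primed PSCs without overlap in 507 of 5371 contacts with values (9.44%). This was so for 133 of 888 contacts with a developmental bait and 374 of 4483 others (8.34%). In 55.3% of the contacts with a developmental bait at least 1 end was higher in primed and neither in naive PSCs, and in 11.9% the reverse held. For the others the shares were 34.2% and 29.3%. These shares count contacts, so the mark of a hub bait enters again with each of its contacts. POU3F2 with 43 and RUNX1 with 31 contacts, both higher in primed libraries without overlap, are examples among developmental baits. Contacts are therefore not replicates, and the share over all fragment pairs was not computed.

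By family, 10 of 12 baited ends of bHLH genes were higher in primed libraries without overlap and 0 in naive, 5 of 6 of LIM homeobox genes against 0, 4 of 4 of FGF genes against 0, and 16 of 33 of other homeobox genes against 2. Over all fragments the shares were 22.5% and 18.0%. Several families leaned less, as forkhead genes with 4 of 10 against 3, NKX genes with 4 of 10 against 1 and TGF-beta and hedgehog ligands with 3 of 9 against 1. SOX genes had 1 of 5 against 1, DLX genes 1 of 4 against 0 and WNT genes 0 of 1 against 0. The HOXA baits went the other way, with 1 of 10 against 4, and HOXD baits had 3 of 10 against 1. The 4 unbaited fragments facing HOXA were also higher in both naive libraries than in any primed library, with log2 differences of -0.74 to -1.04, none of them called. For example chr7:25854578-25864445 had 1.59 and 1.59 RPM in naive and 1.19, 0.564 and 0.701 RPM in primed libraries. Histone baits had 0 of 25 higher in primed against 13 in naive.

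The developmental pairs with the strongest contacts differed in H3K4me1. LHX5 had 0.672 and 0.816 RPM in naive and 1.94, 1.70 and 1.50 RPM in primed libraries, without overlap (log2 difference 1.10, SE 0.222, adjusted p 0.058), whereas TBX3, at the other end, overlapped (0.15). NEUROG2 (1.14), FOXA2 (0.97), LHX6 (0.95) and POU3F2 (0.90) did not overlap either, and their adjusted p lay above 0.05. FOXA1 was called, with 0.507 and 0.452 RPM in naive and 1.47, 1.24 and 1.10 RPM in primed libraries (1.23, SE 0.185, adjusted p 0.035 by limma). SHH, with 0.551 and 0.657 against 1.90, 1.92 and 1.50 RPM, was also called (1.41, adjusted p 0.036 by limma). EN2 (0.29), MNX1 (0.00), and the NKX2-3 baits (0.00 and -0.47) overlapped, although their contacts were listed in primed PSCs alone.

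**Figure D5:**
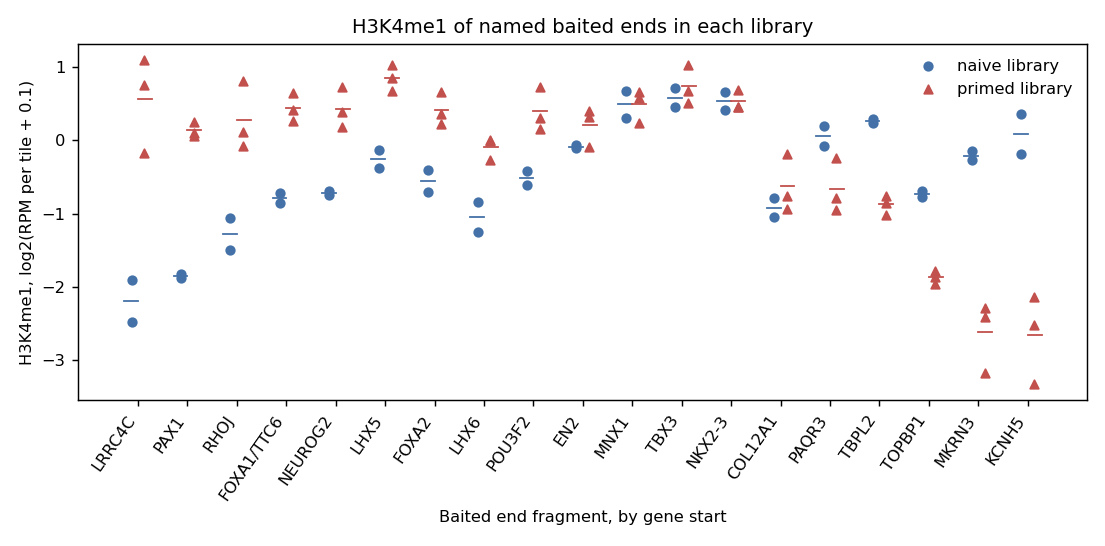
H3K4me1, as log2 of RPM per tile plus 0.1, in each of 2 naive (circles) and 3 primed (triangles) libraries at named baited ends, with a line at each mean. LRRC4C, PAX1 and RHOJ have every primed library above both naive libraries, EN2, MNX1, TBX3 and NKX2-3 overlap, and KCNH5, MKRN3, TOPBP1 and TBPL2 have both naive libraries above.

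Of the 373 ends with at least 5 contacts, 13 (3.49%) were called higher in primed and 14 (3.75%) higher in naive PSCs, all without overlap, near the 3.89% and 3.59% of all fragments. LRRC4C changed most toward primed, with 0.166 and 0.080 RPM in naive and 2.03, 0.790 and 1.59 RPM in primed libraries (log2 difference 2.75, SE 0.442, adjusted p 0.039 by limma). The far end of its strongest contact rose too (2.35, adjusted p 0.031 by limma), even though that contact had 47 reads in naive PSCs. PAX1, a gene of the sclerotome, rose by 1.98 (SE 0.130, adjusted p 0.021), and GPC5-AS1, a bait at chr10:51064839-51070436 and a second FOXP2 bait (chr7:114415847-114420289) by 1.86 to 1.90. The FOXP2 bait with 43 contacts overlapped between states (-0.36).

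Toward naive PSCs KCNH5, a potassium channel gene, changed most, with 0.780 and 1.19 RPM in naive and 0.000, 0.127 and 0.075 RPM in primed libraries (log2 difference -2.75, SE 0.422, adjusted p 0.036 by limma), while it had 31 primed and 9 naive contacts of this range. MKRN3, an imprinted gene, followed (-2.41, SE 0.327), then a bait at chr7:123787495-123793134 (-1.63), TOPBP1, a replication checkpoint gene (-1.14), and TBPL2 (-1.14). RHOJ, near KCNH5, had the opposite direction, with 0.256 and 0.381 RPM in naive and 1.65, 0.851 and 0.983 RPM in primed libraries (1.56, SE 0.329, adjusted p 0.065, and 0.008 among fragments of at least 0.2 RPM).

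At hubs the mark of the bait and of the fragments it met did not always move together. Over all fragments 22.5% were higher in primed and 18.0% higher in naive libraries without overlap. The partners of a hub were mostly neighbouring fragments of few regions (1 for HOOK1, 2 for PAQR3, 4 for POU3F2). They are therefore not separate observations of the mark. The bait 141 kb from LMX1A and its partners were both higher in primed libraries, with 25 of 37 partners without overlap and a partner median of 0.91. The 41 partners of POU3F2 had a median of 0.53, 19 higher in primed and 1 higher in naive without overlap. PAQR3 was higher in naive libraries (-0.72) while its 44 partners had a median of 0.35, with 15 higher in primed and 0 in naive. HOOK1 was higher in primed libraries (0.69) and its 28 partners lower, with a median of -0.52 and 16 higher in naive without overlap. COL12A1 overlapped, and 19 of its 48 partners were higher in naive libraries against 2 in primed.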

How the data were processed

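Members and gene lists were chosen with earlier results of these data known. The authors mapped PCHi-C and Hi-C reads to GRCh38 with HiCUP, combined both PCHi-C replicates in CHiCAGO, and deposited each contact with a rounded read number and a score of at least 5. They deposited Hi-C as raw di-tag counts per pair of 100 kb bins, from 1 library per state (52056334 primed, 31310843 naive), and H3K4me1 CUT&RUN as log2 RPM per 500 bp tile. Per the labels' processing notes, Bowtie2 2.2.7 and 2.3.2, Trim Galore 0.4.5 and 0.5.0 and GRCh38 were used in the series.

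Here, pairs listed from both baits were merged (5748 lines to 5554 contacts). The lists pair fragments with no gene symbols, so fragments were named by the GENCODE v44 genes whose transcript start, or the 1000 bp upstream of it, they hold. The named baits, contacts, groups and ends followed fixed rules: the 20 baited and 5 unbaited fragments with the most contacts, the 10 contacts with the highest scores, the most reads and the highest naive score, the 10 largest groups, the 5 ends with at least 5 contacts and the largest called H3K4me1 change in each direction, and every family. Some further developmental pairs, region pairs and ends were named after their values were seen. RPM per tile was recovered from log2 RPM (100% of non-empty tiles gave whole reads within 0.01), averaged over each fragment, and tested with limma 3.58.1 (R 4.3.3) with a trended variance over all 791413 fragments, a pseudocount of 0.1, no covariate and Benjamini-Hochberg adjustment at 0.05. Replicates share a number only, and the study's methods call them biological. Where cultures are not stated to be separate, p-values measure only the spread between these samples. Groups were built with igraph 0.11.9, and Python 3.11.15, pandas 2.3.3, numpy 2.4.6 and scipy 1.17.1 were used. Scripts were tested on simulated data. Naive NANOG, SOX2 and input samples were not analysed here. Score and read limits, distance measures, pseudocounts, filters, scalings, a replicate block and the omission of each library were tried as alternatives. Some items that met these rules are not reported here.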

Additional observations from a re-analysis of the deposited data

How the results depend on the processing

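The number of contacts was 2884 at a score of at least 7, 1395 at 10, 3481 with at least 10 reads and 954 over 2 Mb. The primed to naive ratio was 4.70 at a score of 10, 5.81 with 10 reads and 8.30 over 2 Mb. Without chromosome 6, counting each region pair once, counting the DLX baits as developmental, and limma voom were added after seeing the data. The ratio was then 5.45 without chromosome 6. The share listed in naive PSCs was 10.8% and 8.10% with both lists held to scores of 7 and 10, 25.5% and 41.8% within 10 and 50 kb, and 15.2% per region pair. The developmental share was 22.2% and 30.0% at scores of 7 and 10, 14.4% if every bait counted, and 11.6% per region pair. The share between 2 baits was 12.8% at a score of 10 and 7.21% with 10 reads, and there were 422, 234 and 461 connected groups at scores of 7 and 10 and with 10 reads. The Hi-C median was 5.38 with distance alone, 5.24 against shifted bins and 4.58 with 10 reads.

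For H3K4me1 at all ends, the numbers called higher in primed and in naive PSCs were 502 and 363 on the deposited log2 mean, 564 and 387 with at least 0.2 RPM (median 0.15), 487 and 432 after quantile normalization (median 0.0093), 570 and 396 with only listed fragments, and 514 and 470 with limma voom. Centring, which moved the median over all fragments to -0.07, gave 300 and 330 and turned the median of the ends to -0.032. A pseudocount of 0.5 turned the order of the calls, to 161 and 205 at all ends and 81 and 108 at ends facing no developmental bait, while 0.05 gave 221 and 154. Leaving out each library gave 0 to 72 and 0 to 37 calls and medians of -0.0054 to 0.19, with the turn in sign without naive replicate 2. With replicate number as a block, over 2 shared numbers whose deviations correlated by 0.127 and 0.094, both counts were 0, with 1006 ends at an unadjusted p under 0.05 (limma). Over the omissions the median of other baited ends ran from -0.17 to 0.037, positive without naive replicate 1, and that of ends facing no developmental bait from -0.0045 (without naive replicate 2) to 0.21, and it was -0.023 when centred and -0.0016 after quantile normalization. The medians of both developmental sets kept their sign throughout, from 0.20 to 0.41 for baited ends and from 0.14 to 0.59 for unbaited ends, but less the median of all fragments that of baited ends fell from 0.27 to 0.080 without primed replicate 1. The 10 ends named for their change kept their calls when centred, filtered, quantile normalized, with listed fragments or by voom, kept 8 with a pseudocount of 0.05 or 0.5 and 9 on the deposited log2 mean, lost all with the block or without naive replicate 1 or 2 or primed replicate 1 or 3, and kept 3 without primed replicate 2. Depth limits single contacts, since 37.3% had under 10 reads.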
